A study of Homo sapiens with 24 samples.

Results

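The transcripts of 10 genes of insulin and insulin-like growth factor (IGF) signalling were followed in A549, a widely used line of human lung cancer cells. The genes were chosen by symbol, with earlier results of these data known. They were INSR and IGF1R among the receptors, IRS1 and IRS2 among the adaptors and PIK3CA and PIK3R1 among the phosphoinositide 3-kinase (PI3K) subunits. AKT1 and AKT2 were taken among the kinases and FOXO1 and FOXO3 among the transcription factors. All 10 were found among the 58302 genes of the A549 table, and 9 of them had a mean of at least 1 FPKM (fragments per kilobase of exon, scaled to library size) over the libraries and were tested with 12607 genes in all. PIK3R1, with a mean of 0.620 FPKM, fell below that limit. The question of the study was what GPD1 does to cancer cell growth in the presence and in the absence of metformin. Polyadenylated RNA was sequenced in 4 groups of 3 libraries: cells carrying a GPD1 lentivirus with 10 mM metformin, cells carrying a blank vector lentivirus with 10 mM metformin, GPD1 cells without metformin and vector cells without metformin. GPD1 makes glycerol-3-phosphate from dihydroxyacetone phosphate in the cytosol and oxidises NADH in doing so. Metformin, given in diabetes, is a biguanide and an inhibitor of respiratory complex I. All 4 groups carry a lentivirus. The labels name neither the promoter of the transgene, nor clones or separate transductions, nor the hours of treatment. Nor is it stated that replicates are separate cultures, and the p-values accordingly reflect only the variation among these libraries, which may be technical.

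Insulin and IGF bind receptor tyrosine kinases at the cell surface, which phosphorylate the IRS adaptor proteins. The adaptors recruit PI3K, the lipid it makes brings AKT to the membrane, and AKT phosphorylates the FOXO factors and keeps them out of the nucleus. When signalling is low, FOXO factors enter the nucleus and are known to raise transcription of several genes of the same pathway, IRS2 and INSR among them. IRS1 and IRS2 are large docking proteins with overlapping roles.

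The steps between low FPKM values corresponded to 13.3 to 18.0 M reads or fragments in a library, and a single read on 1 kb of exon to 0.0556 to 0.0753 FPKM. The transgene followed the labels, as GPD1 lay at 13.3 to 13.8 FPKM in GPD1 metformin libraries and 0.0248 to 0.0702 FPKM in vector metformin libraries, and at 15.1 to 16.8 FPKM in untreated GPD1 libraries and 0.0408 to 0.103 FPKM in untreated vector libraries. The 6 epithelial markers were mixed. The keratins KRT7, KRT8 and KRT18 lay between 64.4 and 351 FPKM in every library. CDH1 lay at 2.26 to 9.29 FPKM, EPCAM at 0.240 to 1.57 FPKM, and KRT19 reached 0.0869 FPKM. The lung lineage factor NKX2-1 reached at most 0.0549 FPKM, and the surfactant gene SFTPA1 was listed at 0. The sum of the 6 lung lineage markers was 0.137 to 0.606 FPKM over the 12 libraries, so the lung lineage of the label was not seen in these markers. The sum of 5 kidney lineage markers, carried by CDH16, PAX2 and CDH6, was 3.93 to 4.22 FPKM in GPD1 metformin, 3.23 to 3.86 in vector metformin, 4.93 to 5.29 in untreated GPD1 and 5.50 to 5.81 in untreated vector libraries, and PAX8 reached 0.162 FPKM. The other line of the series, 786-O, is from a kidney cancer, and the part of these markers in the results was not tested. Of the 4 leukocyte markers, CD3E was listed at 0 and PTPRC reached 0.0299 FPKM, but the sum, carried by CD14 and CD68, was 13.2 to 15.7 FPKM in GPD1 metformin, 7.50 to 9.22 in vector metformin, 9.07 to 13.3 in untreated GPD1 and 2.41 to 3.48 in untreated vector libraries, and its part in the results was not tested. Mitochondrial transcripts took 10.3% to 11.4% of all FPKM in GPD1 metformin libraries and 13.7% to 14.9% in vector metformin libraries, against 30.2% to 32.3% in untreated GPD1 and 32.9% to 33.2% in untreated vector libraries. FPKM is a share of the library, so a lower level of a transcript cannot be told apart from more RNA of other genes, nor in bulk RNA fewer cells from less RNA per cell. The median log2 fold change of all tested genes with metformin was -0.20 in GPD1 cells and -0.10 in vector cells, and -0.49 and -0.34 when the totals were taken without mitochondrial genes.

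Promoter windows are shown for 3 of the genes. Those of IRS1 and IRS2 are given because these 2 adaptors moved in opposite directions with metformin, and that of PIK3CA because it alone among the members held a FOXO element. The windows are from RefSeq on GRCh38.p14 and run from 250 bases before to 50 bases after the transcription start, 5′ to 3′ on the strand of the gene. Capitals mark a GC box (GGGCGG), an E-box (CACGTG) or a FOXO element (GTAAACA), searched on both strands, and neighbouring GC boxes of IRS2 overlap. The IRS1 window lies at chr2:226799771-226800070 on the minus strand, the IRS2 window at chr13:109786534-109786833 on the minus strand and the PIK3CA window at chr3:179148107-179148406 on the plus strand.
IRS1: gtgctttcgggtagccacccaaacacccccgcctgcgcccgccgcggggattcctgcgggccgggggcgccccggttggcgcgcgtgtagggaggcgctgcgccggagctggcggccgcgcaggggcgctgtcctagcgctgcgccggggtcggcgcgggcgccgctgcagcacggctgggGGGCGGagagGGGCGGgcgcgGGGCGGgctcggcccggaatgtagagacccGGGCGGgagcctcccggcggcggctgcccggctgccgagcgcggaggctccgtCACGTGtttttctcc
IRS2: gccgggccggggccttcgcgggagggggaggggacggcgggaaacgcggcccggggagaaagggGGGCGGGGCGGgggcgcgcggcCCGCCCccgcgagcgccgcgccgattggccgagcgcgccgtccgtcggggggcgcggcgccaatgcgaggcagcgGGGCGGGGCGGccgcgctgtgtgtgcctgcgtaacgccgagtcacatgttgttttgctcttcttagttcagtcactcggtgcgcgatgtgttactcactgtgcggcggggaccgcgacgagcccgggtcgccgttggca
PIK3CA: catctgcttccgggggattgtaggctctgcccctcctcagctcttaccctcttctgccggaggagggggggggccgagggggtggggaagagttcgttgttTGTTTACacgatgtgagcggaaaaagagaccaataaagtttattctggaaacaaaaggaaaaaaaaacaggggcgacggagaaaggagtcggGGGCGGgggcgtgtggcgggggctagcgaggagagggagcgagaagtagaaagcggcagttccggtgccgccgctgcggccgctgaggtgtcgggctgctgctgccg

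The IRS1 window held 4 GC boxes, the nearest 18 bases before the start, and an E-box 36 bases after it, with 79.3% G and C and 47 CpG dinucleotides. The IRS2 window held 5 GC boxes, no E-box, 75.7% G and C and 50 CpG dinucleotides. The PIK3CA window held 1 GC box and, 149 bases before the start, 1 FOXO element that reads TGTTTAC on the strand shown, and its G and C share was 60.7%. RefSeq gave 18 windows for the 10 members. A GC box was found in 15 of these windows and in at least 1 window of all 10 members, against 45.0% of 35116 promoters of the same length. The members' windows were richer in G and C, with a median of 71.5% (40.0% to 83.3%) against 58.7% for all promoters, and the shares were not matched for it. The FOXO element was found in 1 of the 18 windows against 3.42% of all promoters, and the E-box in 1 against 7.26%. The cyclic AMP response element TGACGTCA was found in 0 of the 18 windows and in 1.85% of all promoters. These are matches of letters and not sites of binding.

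The order of the 10 genes differed between treated and untreated cells. Without metformin IRS1 had the highest level per length of the 10, at 27.1 ± 0.585 FPKM in GPD1 cells and 18.3 ± 0.674 FPKM in vector cells (SD, n = 3), followed by IGF1R and AKT2. With metformin IRS2 was first, at 8.64 ± 0.182 FPKM in GPD1 cells and 17.9 ± 1.14 FPKM in vector cells. IRS1 ranked below IRS2, AKT2, IGF1R and AKT1 in GPD1 metformin cells, where its range overlapped that of AKT1. In vector metformin cells IRS1 ranked below IRS2 and IGF1R, and its range overlapped those of IGF1R and AKT2. PIK3R1 was last and INSR last but one in every group. The plot of levels by library shows these patterns gene by gene.

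**Figure D1:**
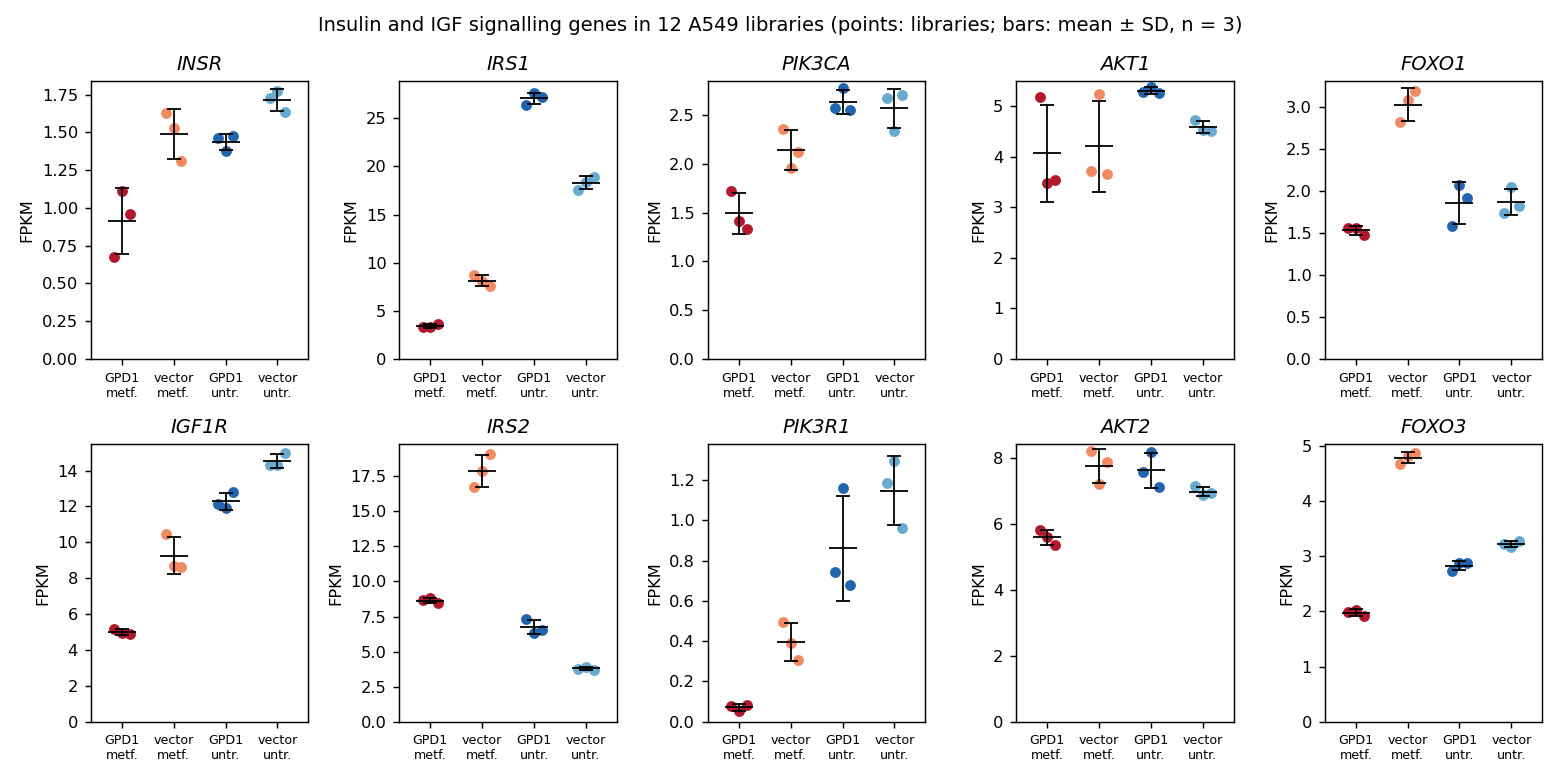
FPKM of the 10 genes (linear axes from 0) in GPD1 metformin, vector metformin, untreated GPD1 and untreated vector cells, where points are libraries and bars the mean ± SD of 3. IRS1 is lower and IRS2 higher in both metformin groups than in their untreated groups, FOXO1 and FOXO3 are highest in vector metformin cells, and AKT1 has 1 library apart in each metformin group, at 5.18 and 5.24 FPKM.

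Metformin in GPD1 cells lowered 7 of the 9 tested members and raised 1, IRS2, among 12607 genes of which 74.2% passed (limma, adjusted p under 0.05; 26.1% higher and 48.0% lower). FOXO1 did not pass. When the trend of change with gene length was removed within each library, the count was 4 of 9, 3 lower and 1 higher, against 71.9% of 12586 genes (36.8% higher and 35.2% lower), and the values of INSR, AKT1 and AKT2 turned above 0. In vector cells metformin raised IRS2, FOXO1 and FOXO3 and lowered IGF1R, IRS1 and PIK3CA, 6 of 9 against 74.6% of all tested genes (31.3% higher and 43.3% lower). The share of members that passed was thus near the background in both. The median log2 fold change of the tested members was -0.36 in GPD1 cells and -0.11 in vector cells, against -0.20 and -0.10 for all tested genes. With GPD1 against vector under metformin, 8 of 9 members were lower and 0 higher, against 60.0% of all tested genes that passed (25.0% higher and 35.0% lower), and the median was -0.67 over the tested members against -0.05 for all tested genes. AKT1 was the member that did not pass. Without metformin 4 of 9 passed against 21.3% of all tested genes (9.99% higher and 11.3% lower), IRS1 and IRS2 higher and IGF1R and FOXO3 lower in GPD1 cells. That last count was 2 without GPD1 untreated replicate 1 or 2, or without any 1 of the 3 untreated vector libraries.

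The effect of metformin itself differed between GPD1 and vector cells. The interaction, which is the log2 fold change with metformin in GPD1 cells minus that in vector cells, passed for 7 of the 9 tested members, all below 0, against 45.9% of all tested genes (19.1% above 0 and 26.8% below 0). Its median was -0.54 over the members and -0.04 over all tested genes. INSR and AKT1 did not pass. The pairwise comparisons share libraries with each other, so their counts are not independent of one another or of the interaction. Because the members were chosen with earlier results of these data known, the counts describe them and do not test them as a set. Every log2 change is on the log2(FPKM + 1) scale, which shrinks the fold of genes at low levels, and folds are therefore ratios of group means in FPKM.

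**Figure D2:**
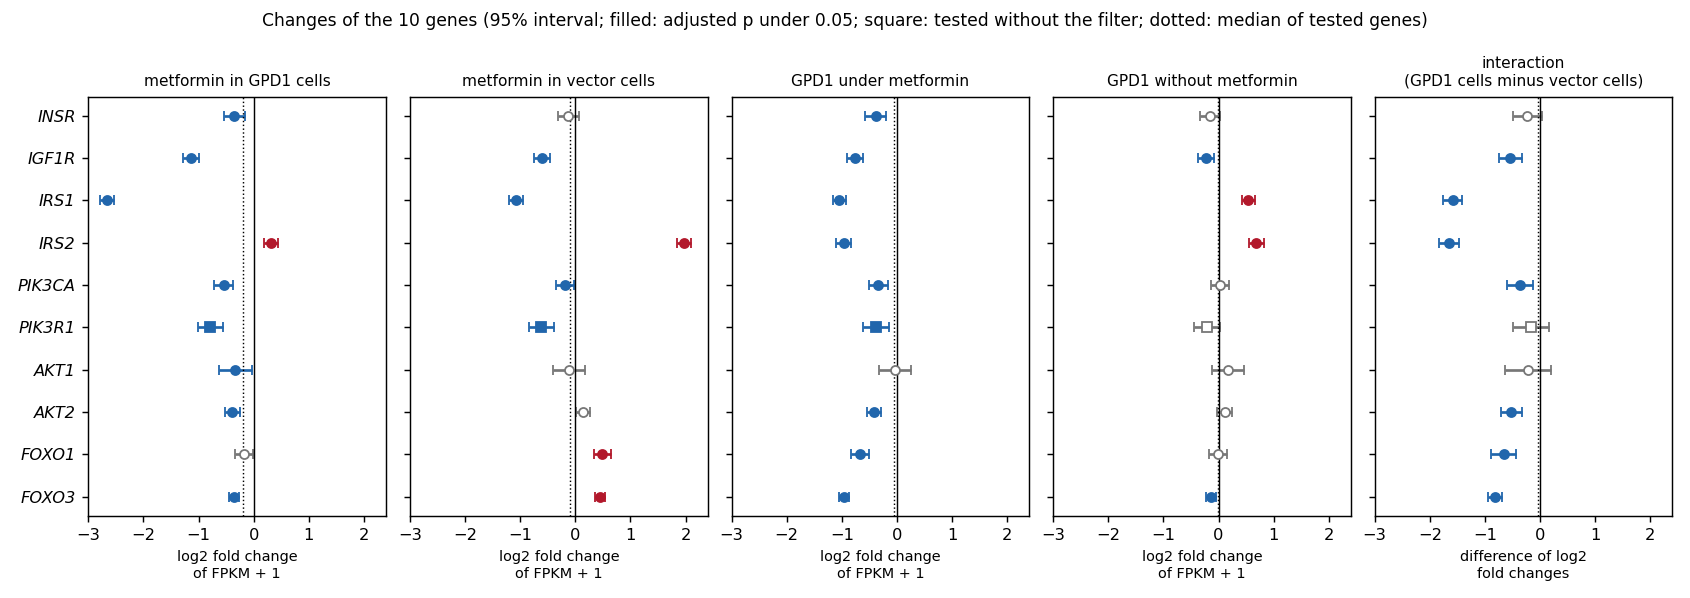
Log2 fold change of FPKM + 1 for each gene in the 5 comparisons, with 95% intervals, where filled points passed the limma test at an adjusted p of 0.05, squares mark PIK3R1 from the fit without the filter on low values, and dotted lines the median of all genes in the fit with the filter. Under metformin 8 of 9 tested members lie below 0 in GPD1 against vector cells and pass, as do 35% of all tested genes. IRS2 is the only member above 0 with metformin in GPD1 cells, at 0.32.

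Of the receptors, IGF1R, which binds IGF1 and IGF2, was lowered by metformin in both GPD1 and vector cells. It had 5.19, 4.95 and 4.89 FPKM in GPD1 metformin libraries, 10.4, 8.70 and 8.62 FPKM in vector metformin libraries, 12.1, 11.9 and 12.8 FPKM in untreated GPD1 libraries and 14.3, 14.3 and 14.99 FPKM in untreated vector libraries. The 4 groups did not overlap. With metformin it was 2.45-fold lower in GPD1 cells (log2 fold change -1.14, SE 0.0649; limma, adjusted p = 5.48e-08) and 1.57-fold lower in vector cells (log2 fold change -0.60; limma, adjusted p = 7.56e-06), and the interaction was -0.54 (SE 0.0918; limma, adjusted p = 0.000773). GPD1 cells were 1.85-fold below vector cells under metformin, with a log2 fold change of -0.77. Without metformin they were 1.18-fold below (log2 fold change -0.23; limma, adjusted p = 0.0309), a call that was lost without GPD1 untreated replicate 1 or 2 or any 1 untreated vector library.

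INSR, the insulin receptor, was below IGF1R per length in every library. It had 0.674, 1.11 and 0.959 FPKM in GPD1 metformin libraries, 1.63, 1.53 and 1.31 FPKM in vector metformin libraries, 1.46, 1.38 and 1.48 FPKM in untreated GPD1 libraries and 1.73, 1.78 and 1.63 FPKM in untreated vector libraries. The GPD1 metformin libraries lay below all others. The vector groups were close but did not overlap, at up to 1.628 FPKM with metformin and from 1.633 FPKM without it. In GPD1 cells it was 1.57-fold lower with metformin (log2 fold change -0.36, SE 0.0849; limma, adjusted p = 0.00293), but the value was 0.0319 with the length trend removed. In vector cells its log2 fold change of -0.13 did not pass (95% interval -0.31 to 0.06; limma, adjusted p = 0.202), and neither did its interaction of -0.23 (95% interval -0.50 to 0.04; limma, adjusted p = 0.143). Under metformin GPD1 cells were 1.63-fold below vector cells (log2 fold change -0.38; limma, adjusted p = 0.00257). The ratio of INSR to IGF1R within a library averaged 0.183 ± 0.0483 in GPD1 metformin and 0.161 ± 0.0128 in vector metformin libraries, against 0.117 ± 0.00303 in untreated GPD1 and 0.118 ± 0.00785 in untreated vector libraries (SD, n = 3). Metformin libraries were all above untreated ones.

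Among the adaptors, IRS1 had the widest range of group means of the 10 members, 2.66 log2 units. It had 3.33, 3.30 and 3.68 FPKM in GPD1 metformin libraries and 8.73, 8.12 and 7.61 FPKM in vector metformin libraries. Untreated GPD1 libraries had 26.4, 27.6 and 27.2 FPKM and untreated vector libraries 17.6, 18.4 and 18.9 FPKM. The 4 groups did not overlap, and the order of GPD1 and vector cells was opposite with and without the drug. With metformin IRS1 was 7.86-fold lower in GPD1 cells (log2 fold change -2.66, SE 0.0546; limma, adjusted p = 1.45e-10) and 2.25-fold lower in vector cells (log2 fold change -1.08; limma, adjusted p = 1.89e-08). GPD1 cells were 2.37-fold below vector cells under metformin (log2 fold change -1.04; limma, adjusted p = 7.79e-08) and 1.48-fold above them without it (log2 fold change 0.54; limma, adjusted p = 5.57e-05). The interaction was -1.58 (SE 0.0772; limma, adjusted p = 3.57e-07).

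IRS2 went the other way with metformin. It had 8.65, 8.81 and 8.45 FPKM in GPD1 metformin libraries and 16.8, 17.8 and 19.1 FPKM in vector metformin libraries. Untreated GPD1 libraries had 7.34, 6.34 and 6.57 FPKM and untreated vector libraries 3.79, 3.90 and 3.72 FPKM. The 4 groups did not overlap. In vector cells IRS2 was 4.70-fold higher with metformin (log2 fold change 1.97, SE 0.058; limma, adjusted p = 4.08e-10). In GPD1 cells it was 1.28-fold higher (log2 fold change 0.32, SE 0.058; limma, adjusted p = 0.0005), a rise that turned to -0.0286 with totals taken without mitochondrial genes. GPD1 cells were 2.07-fold below vector cells under metformin (log2 fold change -0.97; limma, adjusted p = 1.9e-07) and 1.77-fold above them without it (log2 fold change 0.69; limma, adjusted p = 1.45e-05). The interaction was -1.66 (SE 0.0821; limma, adjusted p = 3.85e-07).

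The ratio of the 2 adaptors within a library does not depend on how libraries are scaled. IRS2 to IRS1 was 2.60, 2.67 and 2.29 in GPD1 metformin libraries and 1.92, 2.20 and 2.51 in vector metformin libraries, against 0.278, 0.230 and 0.242 in untreated GPD1 libraries and 0.216, 0.212 and 0.197 in untreated vector libraries. IRS2 exceeded IRS1 in all 6 metformin libraries and in 0 of the 6 untreated ones. The mean ratio with metformin was 10.1-fold higher in GPD1 cells and 10.6-fold higher in vector cells. GPD1 and vector libraries overlapped under metformin, at 2.52 ± 0.198 and 2.21 ± 0.292 (SD, n = 3), although GPD1 cells there had 2.37-fold less IRS1 and 2.07-fold less IRS2. No test is given for the ratios, since the pairs were chosen with earlier results of these data known.

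**Figure D3:**
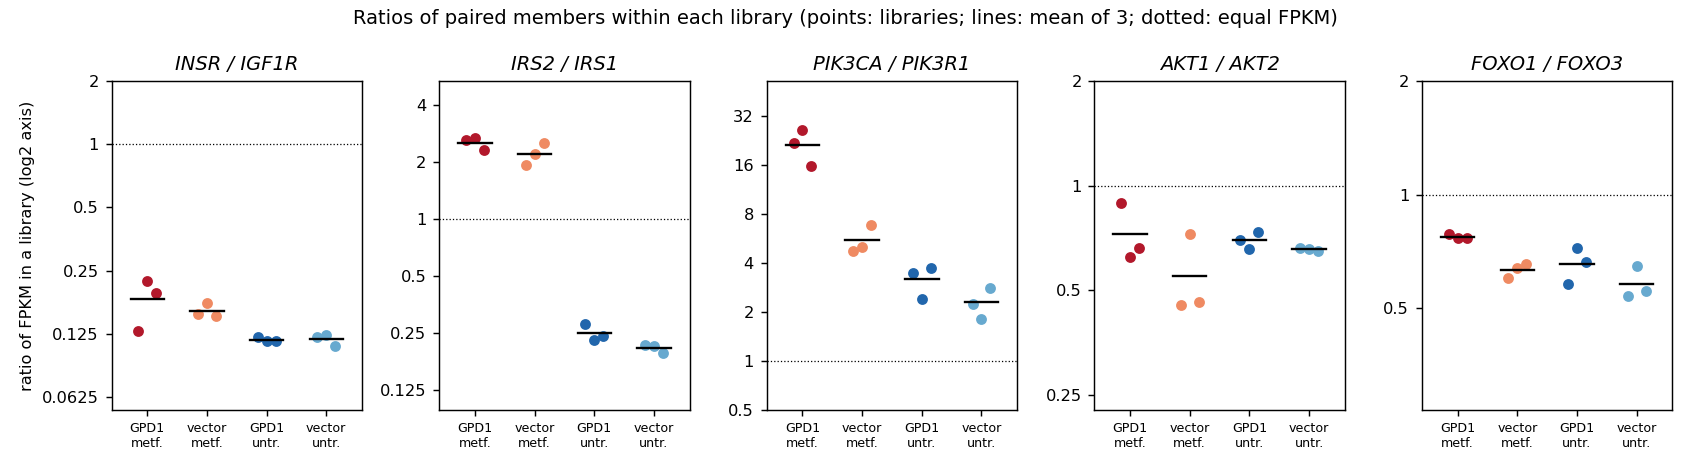
Ratio of FPKM between 2 members of the same kind within each library (log2 axes), with points for libraries and lines for the mean of 3 in GPD1 metformin, vector metformin, untreated GPD1 and untreated vector cells. The ratio of IRS2 to IRS1 is above 1 (dotted) in all 6 metformin libraries and below it in all 6 untreated ones, and that of PIK3CA to PIK3R1 is highest in GPD1 metformin libraries, at 15.9 to 26.4.

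PIK3CA encodes the catalytic subunit p110 alpha of PI3K and PIK3R1 the regulatory subunit p85 alpha that stabilises it and docks on the adaptors. PIK3CA had 1.73, 1.41 and 1.34 FPKM in GPD1 metformin libraries, 2.35, 1.95 and 2.12 FPKM in vector metformin libraries, 2.57, 2.77 and 2.55 FPKM in untreated GPD1 libraries and 2.67, 2.34 and 2.70 FPKM in untreated vector libraries. The GPD1 metformin libraries were below all others and the 2 vector groups overlapped. In GPD1 cells it was 1.77-fold lower with metformin (log2 fold change -0.55, SE 0.0748; limma, adjusted p = 5.56e-05). In vector cells it was 1.20-fold lower (log2 fold change -0.19; limma, adjusted p = 0.0433), which turned to 0.0350 with the length trend removed and did not pass with median-ratio scaling, with a pseudocount of 0.1, without the filter on low values, with only the groups compared, or without vector metformin replicate 2 or 3, untreated vector replicate 1 or 3, GPD1 metformin replicate 2 or any 1 untreated GPD1 library. The interaction was -0.36 (SE 0.106; limma, adjusted p = 0.0169), and the call was lost with upper-quartile scaling, at -0.27, and with the length trend removed, at -0.20.

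PIK3R1 was low throughout and lowest in GPD1 metformin cells. It had 0.0782, 0.0534 and 0.0843 FPKM in GPD1 metformin libraries, about 9.95 to 14.0 reads over its exons, and 0.496, 0.390 and 0.307 FPKM in vector metformin libraries. Untreated GPD1 libraries had 0.744, 1.16 and 0.679 FPKM and untreated vector libraries 1.19, 1.29 and 0.962 FPKM. Both metformin groups lay below the untreated ones, and the untreated groups overlapped. PIK3R1 was 12-fold lower with metformin in GPD1 cells and 2.89-fold lower in vector cells, and under metformin 5.52-fold lower in GPD1 than in vector cells. In the fit without the filter on low values, which holds 35437 genes, the 3 log2 fold changes were -0.79 (SE 0.103; limma, adjusted p = 0.000146), -0.62 (limma, adjusted p = 0.000699) and -0.38 (limma, adjusted p = 0.0212), and the interaction of -0.17 did not pass (95% interval -0.49 to 0.16; limma, adjusted p = 0.553). The ratio of PIK3CA to PIK3R1 averaged 21.4 ± 5.31 in GPD1 metformin and 5.55 ± 1.18 in vector metformin libraries, against 3.20 ± 0.717 in untreated GPD1 and 2.29 ± 0.502 in untreated vector libraries (SD, n = 3). The metformin groups overlapped neither each other nor the untreated groups. This ratio rests on the low values of PIK3R1. Its log2 change with metformin was 2.74 in GPD1 cells and 1.28 in vector cells, but 0.24 and 0.43 with 1 FPKM added to both genes. An added 1 FPKM flattens the change of a gene as low as PIK3R1, so the second pair cannot tell in which cells the ratio changed more. The interaction of -0.17 is shrunk by the same constant.

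The kinases moved least. AKT1 had 5.18, 3.48 and 3.54 FPKM in GPD1 metformin libraries, 3.72, 5.24 and 3.65 FPKM in vector metformin libraries, 5.28, 5.38 and 5.26 FPKM in untreated GPD1 libraries and 4.72, 4.52 and 4.50 FPKM in untreated vector libraries. In each metformin group 1 library stood at 5.18 or 5.24 FPKM and the other two lay between 3.48 and 3.72 FPKM. In GPD1 cells its log2 fold change was -0.33 (SE 0.132; limma, adjusted p = 0.0408), which did not pass with median-ratio (-0.13) or upper-quartile scaling (-0.22), turned to 0.0600 with the length trend removed, and was lost in most fits that left out 1 library, where it ranged from -0.48 to -0.25. In vector cells the log2 fold change was -0.11 (95% interval -0.41 to 0.18; limma, adjusted p = 0.451). The interaction was -0.22 (95% interval -0.63 to 0.20; limma, adjusted p = 0.368).

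AKT2, the isoform most tied to glucose handling in muscle and fat, was lower in GPD1 metformin cells than in any other group. It had 5.82, 5.60 and 5.36 FPKM in GPD1 metformin libraries, 8.22, 7.20 and 7.88 FPKM in vector metformin libraries, 7.57, 8.19 and 7.13 FPKM in untreated GPD1 libraries and 7.14, 6.88 and 6.93 FPKM in untreated vector libraries. The other 3 groups lay between 6.88 and 8.22 FPKM. In GPD1 cells it was 1.36-fold lower with metformin (log2 fold change -0.39, SE 0.0585; limma, adjusted p = 0.000119), against 0.00853 with the length trend removed. In vector cells the log2 fold change of 0.13 did not pass (95% interval 0.00 to 0.26; limma, adjusted p = 0.0592), although it did with median-ratio scaling (0.27), with the length trend removed (0.38) and without vector metformin replicate 2 (0.18) or untreated GPD1 replicate 2. The interaction was -0.52 (SE 0.0827; limma, adjusted p = 0.000486). The ratio of AKT1 to AKT2 overlapped in every pair of groups, with means of 0.724 in GPD1 metformin, 0.548 in vector metformin, 0.697 in untreated GPD1 and 0.655 in untreated vector libraries.

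FOXO3, a factor that AKT holds in the cytoplasm, rose with metformin in vector cells and fell in GPD1 cells. It had 1.98, 2.03 and 1.92 FPKM in GPD1 metformin libraries and 4.67, 4.82 and 4.87 FPKM in vector metformin libraries, against 2.73, 2.87 and 2.88 FPKM in untreated GPD1 libraries and 3.23, 3.16 and 3.27 FPKM in untreated vector libraries. The 4 groups did not overlap. In vector cells it was 1.49-fold higher with metformin (log2 fold change 0.45, SE 0.0413; limma, adjusted p = 1.95e-06). In GPD1 cells it was 1.43-fold lower (log2 fold change -0.36; limma, adjusted p = 1.33e-05), against -0.01 with the length trend removed. GPD1 cells were 2.42-fold below vector cells under metformin (log2 fold change -0.96; limma, adjusted p = 2.25e-08). Without metformin they were 1.14-fold below (log2 fold change -0.14; limma, adjusted p = 0.0335), which was lost when any 1 of the 6 untreated libraries was left out. The interaction was -0.82 (SE 0.0584; limma, adjusted p = 2.53e-06).

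FOXO1 had 1.56, 1.56 and 1.47 FPKM in GPD1 metformin libraries and 2.81, 3.08 and 3.18 FPKM in vector metformin libraries, against 1.59, 2.07 and 1.91 FPKM in untreated GPD1 libraries and 1.74, 2.04 and 1.82 FPKM in untreated vector libraries. Vector metformin libraries were above all others, and the untreated groups overlapped. In vector cells it was 1.62-fold higher with metformin (log2 fold change 0.49, SE 0.0723; limma, adjusted p = 9.51e-05). In GPD1 cells the log2 fold change of -0.17 did not pass (95% interval -0.33 to -0.01; limma, adjusted p = 0.0506), although it did with totals taken without mitochondrial genes (-0.41), with a pseudocount of 0.1 (-0.26) and without untreated GPD1 replicate 1 (-0.24), vector metformin replicate 1 or untreated vector replicate 2. GPD1 cells were 1.98-fold below vector cells under metformin (log2 fold change -0.67; limma, adjusted p = 1.54e-05), and the interaction was -0.66 (SE 0.102; limma, adjusted p = 0.000405). The ratio of FOXO1 to FOXO3 was 0.773 ± 0.0104 in GPD1 metformin and 0.632 ± 0.0265 in vector metformin libraries, against 0.655 ± 0.0708 in untreated GPD1 and 0.580 ± 0.0576 in untreated vector libraries (SD, n = 3). The GPD1 metformin libraries were above all others.

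Some of these values may hold reads of other genes. FOXO3 has a near-identical processed copy, FOXO3B, which lay at 1.56 ± 0.339 FPKM in GPD1 metformin, 4.25 ± 0.850 in vector metformin, 3.05 ± 0.395 in untreated GPD1 and 3.50 ± 0.426 in untreated vector cells (SD, n = 3). How reads shared by the copies were assigned is not given, and with the reads of FOXO3B added the interaction of FOXO3 was -0.87. FOXO1B, the copy of FOXO1, reached at most 0.411 FPKM. FOXO3B, FOXO1B and the next genes were named after their values were seen. AKT2 overlaps the sense intronic transcript AC118344.1, which reached 3.04 FPKM, and IGF1R the antisense transcript AC036108.1, which reached 1.64 FPKM. The labels give no strand for the libraries, so reads of overlapping genes cannot be told apart.

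The 10 genes are long. Their merged exons span 6232 to 15035 bases against a median of 4202 bases over the tested genes, and 9 of the 10 exceed the 75th percentile of 6775 bases. Length moved with the effect of metformin over all genes, as the 2517 longest tested genes had a median log2 fold change of -0.37 in GPD1 cells and -0.23 in vector cells, against 0.11 and 0.17 for the 2518 shortest. In the interaction these medians were -0.11 for the longest and -0.01 for the shortest. With that trend removed within each library, metformin in GPD1 cells changed 4 of the 9 tested members against 71.9% of all genes in that fit (36.8% higher and 35.2% lower), IGF1R, IRS1 and PIK3CA lower and IRS2 higher. The interaction then passed for 6 members, all below 0, without PIK3CA, against 48.3% of all genes (21.9% below 0). GPD1 against vector under metformin then passed for 7 members, all lower, against 61.2% of all genes (28% lower). IRS1 and IGF1R were lower with metformin in both kinds of cell under each of the scalings plotted, and IRS2, FOXO1 and FOXO3 higher in vector cells under each.

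**Figure D4:**
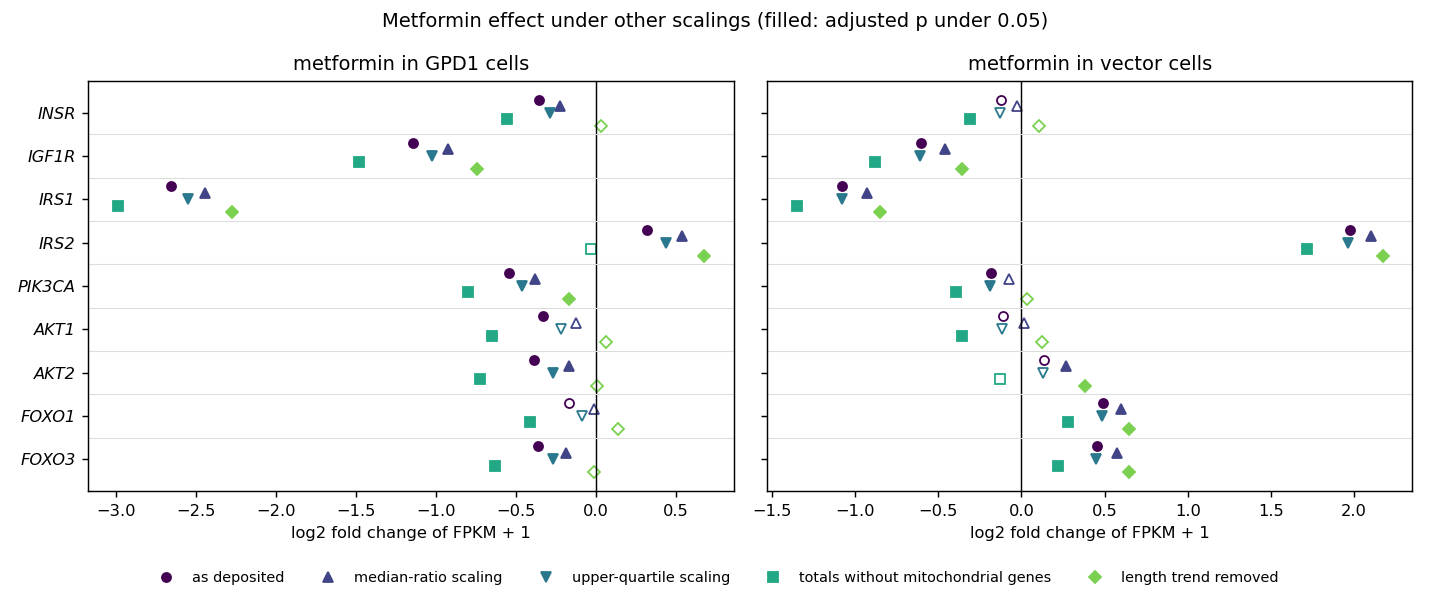
Log2 fold change of FPKM + 1 with metformin in GPD1 and in vector cells for the 9 tested genes, from the deposited values and with 4 other scalings, where filled symbols passed the limma test at an adjusted p of 0.05. IRS1 stays between -2.99 and -2.28 in GPD1 cells, while IRS2 there lies between -0.0286, with totals taken without mitochondrial genes, and 0.68, with the length trend removed.

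The other genes of the pathway were taken from lists by role, and their counts of genes that passed stand against 26.1% of all tested genes higher and 48.0% lower with metformin in GPD1 cells, 31.3% and 43.3% with metformin in vector cells, 25.0% and 35.0% in GPD1 against vector cells under metformin and 19.1% and 26.8% in the interaction. Ligands were scarce, as INS was listed at 0, IGF1 reached 0.00918 FPKM and IGF2 0.999 FPKM. IGF binding proteins, which hold IGFs outside the cell, made up the 6 tested of the 11 genes of ligands and binding proteins, and with metformin 3 of the 6 rose and 3 fell in GPD1 cells as in vector cells, where the split was 1 and 4 with totals taken without mitochondrial genes. IGFBP4 was the most abundant, at 2386 ± 27.5 FPKM in GPD1 metformin cells against 1507 ± 37.9 FPKM in untreated GPD1 cells, and at 2802 ± 21.3 FPKM in vector metformin cells against 1689 ± 37.6 FPKM in untreated vector cells (SD, n = 3). IGFBP7 was lower in GPD1 than in vector cells, 5.23-fold with metformin and 6.06-fold without it.

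Of the other receptors and adaptors, 10 of 14 were tested. With metformin in GPD1 cells 2 rose and 2 fell, a split that was 2 and 7 with totals taken without mitochondrial genes and 7 and 0 with the length trend removed. SH2B2, an adaptor of the insulin receptor, had 8.01 ± 0.810 FPKM in GPD1 metformin cells and 31.5 ± 1.23 FPKM in vector metformin cells, against 2.96 ± 0.354 FPKM in untreated GPD1 cells and 6.30 ± 0.265 FPKM in untreated vector cells (SD, n = 3). Its rise with metformin was 2.71-fold in GPD1 cells and 5.00-fold in vector cells, and its interaction of -0.97 passed (limma, adjusted p = 5.83e-05). GRB7, another adaptor, rose 2.77-fold in GPD1 cells and 2.58-fold in vector cells.

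Of the other PI3K, AKT and upstream kinase genes, 13 of 20 were tested, and with metformin 1 rose and 9 fell in GPD1 cells, against 26.1% and 48.0% of all, and 2 rose and 9 fell in vector cells, against 31.3% and 43.3%. In vector cells the count of falls was 5 without untreated vector replicate 2 or 3. RICTOR, the defining subunit of the complex mTORC2 that phosphorylates AKT, had 2.52 ± 0.357 FPKM in GPD1 metformin cells against 7.66 ± 0.940 FPKM in vector metformin cells (SD, n = 3), 3.04-fold lower, with an interaction of -1.41 (limma, adjusted p = 1.75e-05). PIK3R4, a regulatory subunit of the class III kinase, and MTOR fell with metformin in both kinds of cell. The log2 fold change of PIK3R4 was -1.26 in GPD1 cells (3.28-fold) and -0.65 in vector cells. That of MTOR was -0.57 in GPD1 cells and -0.75 in vector cells (1.82-fold).

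Of the inhibitors of the pathway, 13 of 19 were tested. With metformin 4 rose and 4 fell in GPD1 cells, which became 1 and 7 with totals taken without mitochondrial genes and 8 and 1 with the length trend removed, and 6 rose and 3 fell in vector cells, which became 5 and 6 with totals taken without mitochondrial genes. Those 8 and 9 of 13 that passed compare with 74.2% and 74.6% of all tested genes. TRIB3, a pseudokinase described as an AKT inhibitor and a known target of stress signalling, rose 3.39-fold in vector cells, and its interaction was -1.54 (limma, adjusted p = 2.31e-04). PTPN1, a phosphatase of the insulin receptor, was 1.92-fold lower in GPD1 than in vector cells under metformin.

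Of the AKT substrates and outputs, 15 of 18 were tested. In the interaction 2 passed above 0 and 7 passed below, against 19.1% and 26.8% of all tested genes. GSK3B and TSC2 fell with metformin in both kinds of cell. GSK3B fell 2.11-fold in GPD1 cells (log2 fold change -0.95), against a log2 fold change of -0.51 in vector cells. TSC2 fell 2.76-fold in GPD1 cells and 1.92-fold in vector cells. EIF4EBP1, the translation repressor 4E-BP1, rose 2.56-fold in GPD1 cells and 2.33-fold in vector cells. SLC2A1, the glucose transporter GLUT1, was 3.15-fold higher in GPD1 than in vector cells under metformin, at 54.7 ± 9.79 FPKM against 17.3 ± 2.21 FPKM, and 2.32-fold higher without it (SD, n = 3).

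Of the FOXO target genes, a list that holds the members INSR, IRS2 and PIK3CA, 20 of 31 were tested. With metformin 12 rose and 6 fell in vector cells, with a median log2 fold change of 0.45 against -0.10 for all tested genes. In GPD1 cells 10 rose and 5 fell, with a median of 0.16 against -0.20. That split was 3 and 9 with totals taken without mitochondrial genes and 14 and 4 with the length trend removed. Under metformin 3 were higher and 12 lower in GPD1 than in vector cells, with a median of -0.45 against -0.05. In the interaction 3 passed above 0 and 10 passed below. GADD45A, a growth arrest gene, rose 6.15-fold in GPD1 cells and 8.01-fold in vector cells, with an interaction of -0.35 (limma, adjusted p = 0.00514), and is also known as a target of other stress pathways. CITED2, a transcriptional coregulator, fell 6.69-fold in GPD1 cells and 3.16-fold in vector cells. SESN1, a stress-response gene, was 3.28-fold lower in GPD1 than in vector cells under metformin, and CDKN1B, the cell cycle inhibitor p27, was 2.16-fold lower, at 11.9 ± 0.668 FPKM against 25.7 ± 0.908 FPKM (SD, n = 3). Several of these genes are targets of p53 or other factors, whose part was not tested.

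**Figure D5:**
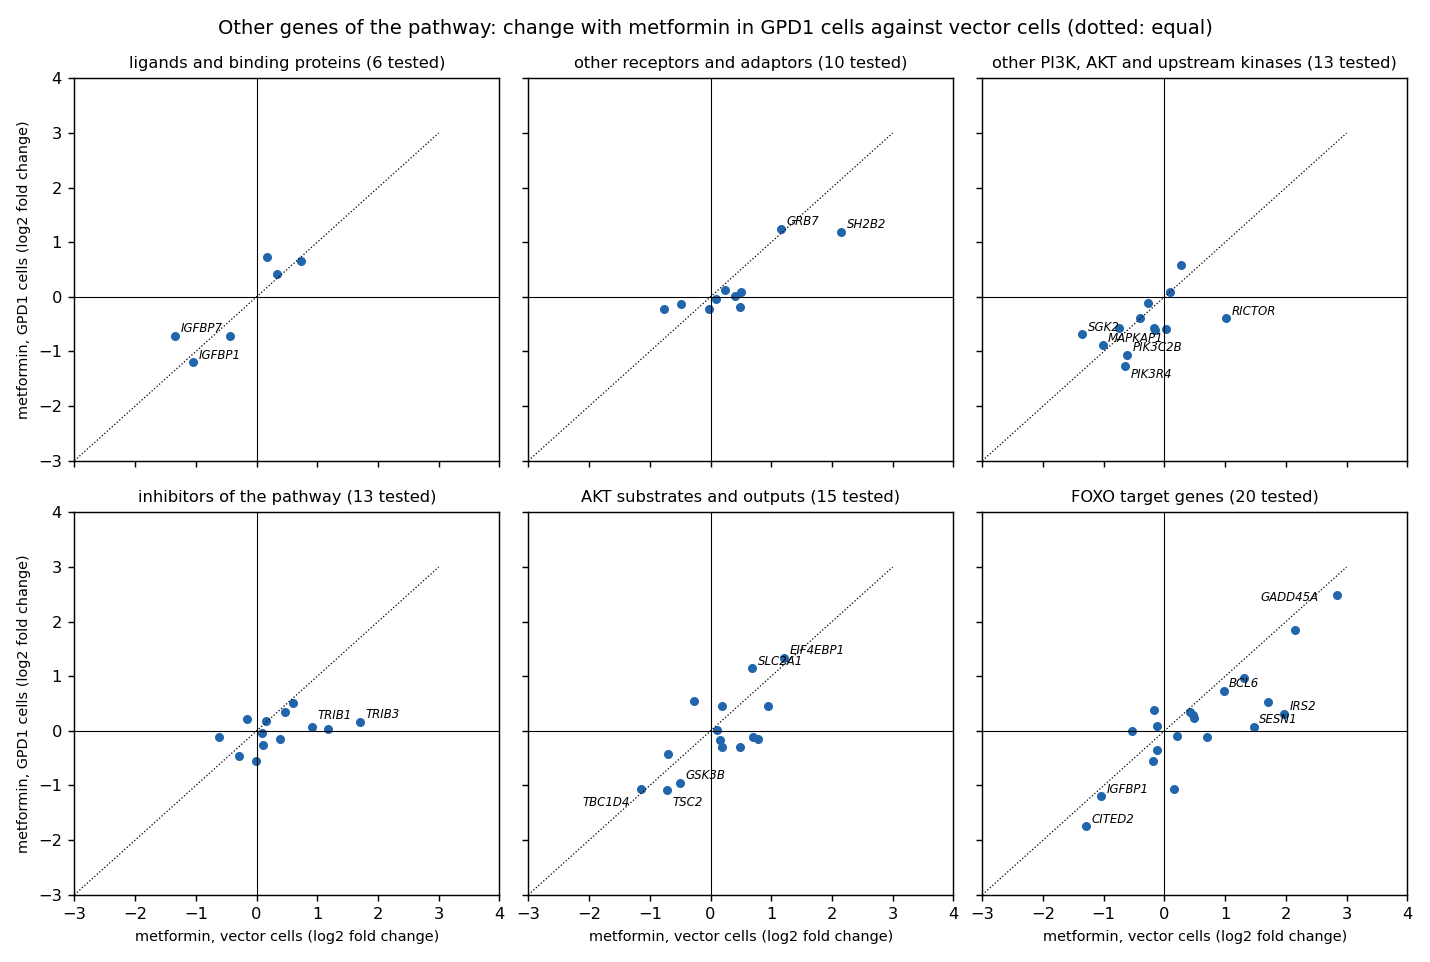
Log2 fold change of FPKM + 1 with metformin in GPD1 cells (vertical) against vector cells (horizontal) for the tested genes of the 6 lists, where the dotted line marks equal change. SH2B2, RICTOR, TRIB3, IRS2 and SESN1 lie well below the line, with a higher value in vector cells, and EIF4EBP1, whose interaction of 0.12 did not pass, lies near it.

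The genes whose pattern was most like that of the adaptors were sought among tested protein-coding genes by Pearson's r of log2(FPKM + 1) over the 12 libraries, which fall into 4 groups. The closest to IRS1 were GABRE (r = 0.997), CHPF2 (0.996) and PRPF6 (0.993). GABRE averaged 1.36 FPKM in GPD1 metformin, 3.48 in vector metformin, 12.2 in untreated GPD1 and 7.94 in untreated vector cells. The closest to IRS2 were C1QL1 (r = 0.990), SIK1B (0.989) and SIK1 (0.988), and the last 2 are near-identical copies whose reads may be split between them. SIK1, a salt-inducible kinase, averaged 56.7 FPKM in GPD1 metformin, 133 in vector metformin, 37.2 in untreated GPD1 and 25.9 in untreated vector cells.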

How the data were processed

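The deposited A549 table holds 58302 genes by 12 columns, and 0 columns were left unused. Its header names no unit, and the values were read as FPKM computed by the authors, because low values times exon length (union of exons, GENCODE release 29, with 97.2% of genes at the same locus and 99.5% with a length) form whole multiples of a step in each library. Among genes of at most 10 steps, 64.6% to 69.3% were whole to within 0.02. RPKM cannot be told apart from it. Tools named by the authors, per the submitters' processing notes, are HISAT2 2.1.0, CASAVA 1.8 and edgeR without a version, and the build is GRCh38. Which program computed the deposited FPKM, and with which gene models, is not given in the sources used here. Samples of the line 786-O (12) were not analysed.

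Libraries were assigned to groups by their column names. Genes averaging 1 FPKM or more were fitted as log2(FPKM + 1) with 4 group means in limma 3.58.1 under R 4.3.3, its prior variance following the intensity, and p-values were adjusted by Benjamini and Hochberg over all 12607 tested genes with a threshold of 0.05. The plan provided a count test in case the table held counts. The 10 members and the lists were chosen with earlier results of these data known. All members were named, with GPD1, up to 2 tested genes per list, comparison and direction with the smallest adjusted p under 0.05, and 3 genes most like each of the 2 members with the widest range. Values of some genes of the lists are not reported here. The test was tested on simulated data.

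Alternatives were median-ratio and upper-quartile scaling on the tested genes, totals without mitochondrial genes, no filter (35437 genes), a pseudocount of 0.1, only the groups compared, the replicate number as a block, removal of a length trend (natural spline with 5 degrees of freedom) and each library left out in turn. The addition of FOXO3B reads to FOXO3, and the list counts under these settings, were chosen after seeing the data.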

Additional observations from a re-analysis of the deposited data

Results flagged for a closer look

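The log2 fold change with metformin differed between GPD1 and vector cells by the interaction test of limma in 7 of the 9 tested members, and each difference (GPD1 cells minus vector cells) was below 0. It was -1.66 for IRS2, -1.58 for IRS1, -0.82 for FOXO3, -0.66 for FOXO1, -0.54 for IGF1R, -0.52 for AKT2 and -0.36 for PIK3CA. IRS1 and IGF1R fell with metformin in both kinds of cell and fell further in GPD1 cells. PIK3CA fell in GPD1 cells, but its fall in vector cells (-0.19) turned to 0.0350 with the length trend removed and lost its call with median-ratio scaling and a pseudocount of 0.1, and its interaction lost its call with upper-quartile scaling (-0.27) and with the length trend removed (-0.20). IRS2 rose less in GPD1 cells, and its value there turned below 0 with totals taken without mitochondrial genes. FOXO3 fell in GPD1 cells and rose in vector cells, FOXO1 rose in vector cells with -0.17 and no call in GPD1 cells, and AKT2 fell in GPD1 cells with 0.13 and no call in vector cells. With the length trend removed the falls of FOXO3 and AKT2 in GPD1 cells lost their calls, and the value of AKT2 turned above 0. Interactions of both signs passed in 45.9% of all tested genes. The part of GPD1 itself, as opposed to other differences between the transduced populations, cannot be told apart.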

How the results depend on the processing

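Of 901 recomputed member values, 836 kept their call or their lack of one, 44 lost a call, 16 gained one and 5 turned. A value without a call could change sign and still be among the 836. With metformin, those that turned were INSR (0.0319), AKT1 (0.0600) and AKT2 (0.00853) in GPD1 cells and PIK3CA (0.0350) in vector cells with the length trend removed, and IRS2 in GPD1 cells (-0.0286) with totals taken without mitochondrial genes. Among 540 member values from fits that left out 1 library, 27 lost a call, 5 gained one and no called value turned. Values without a call did change sign. AKT1 in GPD1 against vector cells under metformin ranged from -0.19 to 0.096. Without metformin PIK3CA ranged from -0.02 to 0.05 and FOXO1 from -0.06 to 0.06. With the length trend removed metformin in GPD1 cells called 4 of the 9 tested members, against 71.9% of all genes in that fit. Without the filter metformin in vector cells called 14315 of 35437 genes, against 9411 of 12607 with it. GPD1 against vector without metformin called 2 to 4 members when 1 library was left out, and 2068 to 2876 of all tested genes. With a pseudocount of 1 the log2 change with metformin of the ratio of IRS2 to IRS1 was 2.98 in GPD1 and 3.06 in vector cells, against 3.33 and 3.41, and that of PIK3CA to PIK3R1 was 0.24 and 0.43, against 2.74 and 1.28. That of AKT1 to AKT2 in GPD1 cells ranged from -0.12, without GPD1 metformin replicate 1, to 0.15. The causes were not tested.

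Replicate numbers did not pair the libraries, as the correlations of same-numbered deviations lay between -0.07 and 0.06. With the replicate block 8, 6, 8, 3 and 7 of the 9 tested members were called for metformin in GPD1 cells, metformin in vector cells, GPD1 under metformin, GPD1 without metformin and the interaction. In the same order, that fit called 9253, 9333, 7446, 2374 and 5643 of all 12607 tested genes. The block ended the calls of AKT1 with metformin in GPD1 cells and of FOXO3 without metformin, and added FOXO1 with metformin in GPD1 cells. Depth limits PIK3R1 most, at 9.95 to 14.0 reads in GPD1 metformin libraries.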
